A study of Sus scrofa with 16 samples.

Results

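Secreted Wnt modulators are the subject here, a set of 8 genes taken by symbol from the estimated count and TPM tables, in which 22629 genes are listed. They are the 5 secreted frizzled-related proteins *SFRP1*, *SFRP2*, *SFRP4*, *SFRP5* and *FRZB* (also called SFRP3), the Dickkopf genes *DKK2* and *DKK3*, and *WIF1*. All 8 had an entry in both tables. *SFRP2* was chosen by its measured values, for a large ratio of IR to sham pigs in the scar zone, so its values in the scar zone, and in every comparison that uses those samples, are a description without a test.

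Wnt proteins are secreted ligands that bind Frizzled receptors at the cell surface, with LRP5 and LRP6 as co-receptors in the branch that stabilizes beta-catenin. Secreted frizzled-related proteins carry a domain like that of Frizzled and bind Wnt ligands outside the cell, as does WIF1 through a different domain, whereas Dickkopf proteins such as DKK2 act on the co-receptors. In the injured heart these proteins are known as products of fibroblasts and other stromal cells, and SFRP2 has also been linked to the processing of procollagen.

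White Yorkshire-Landrace farm pigs underwent surgery at 1 month of age. The IR pigs received heparin and had the left anterior descending coronary artery occluded for 1 h before reperfusion, and in sham pigs the suture was placed but not tightened, with the chest kept open for a comparable time. Hearts were collected 4 weeks later from 4 IR pigs (females 2 and 14, males 9 and 11) and 4 sham pigs (females 4 and 5, males 12 and 13), and 1 piece of left ventricle from each zone was taken per animal, 16 samples in all. The IR scar zone samples held scar together with neighbouring myocardium, and the sham "scar" zone was a piece of the same size at the suture site, without a scar.

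Library totals ran from 15427664 to 49045206 estimated counts, so that 3 counts, the smallest number read here as detected, equal 0.0612 to 0.194 CPM (counts scaled to the library total). The 4 libraries of IR females held 15427664 to 21166014 counts and the 4 of IR males 33521418 to 49045206, so sex and depth of the IR pigs cannot be told apart. Summed cardiomyocyte markers (9 of 10 with an entry) were at 50852 to 61936 TPM (estimates scaled for transcript length and depth) in the scar zone of sham pigs and 54792 to 60842 in that of IR pigs, and none of the 4 groups lacked a defining heart muscle gene. Summed fibroblast markers (13 of 13) were at 2250 to 2867 TPM in the sham scar zone. In the IR scar zone they were at 11464 in pig 9 and 10913 in pig 11, but at 2376 in pig 2 and 1716 in pig 14. The IR scar zone of the females was therefore within or below the range of sham pigs in fibroblast markers, and that of the males was at about 4 times the sham maximum. The Y-linked gene *DDX3Y*, a check of the sex labels, was at 68.4 to 103 CPM in the 8 male libraries and 0.389 to 1.23 in 7 female libraries, and at 4.50 CPM in the IR scar zone of female pig 14. That library therefore stood apart from the other female libraries in this gene, and the bearing of this on its other values was not tested.

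*SFRP2* was high in the IR scar zone of both males and at or near 0 in both females. Its level was 34.5 TPM in pig 9 and 85.0 TPM in pig 11, against 0 in pig 2 and 0.0411 TPM in pig 14. The sham scar zone held 0.109, 0.0258, 0.189 and 0.192 TPM in pigs 4, 5, 12 and 13. Pigs 9 and 11 thus stood at 179 and 442 times the highest sham pig, whereas pigs 2 and 14 were within or below the sham values, and the groups overlapped.

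These levels rested on 3102 counts in pig 9 and 7864 in pig 11, and on 0 and 2 counts in pigs 2 and 14. Relative to library totals, *SFRP2* was at 85.0 CPM in pig 9 (Clopper-Pearson 95% interval 82 to 88.0) and 229.6 CPM in pig 11 (224.6 to 234.7). Pig 2, with 0 counts, had an upper limit of 0.210 CPM, and such intervals cover counting error only. Among the 22629 genes, *SFRP2* was the 899th by TPM in pig 11 and the 2652nd in pig 9.

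In the scar zone the group mean of *SFRP2* was 29.9 ± 40.2 TPM for IR and 0.129 ± 0.0788 TPM for sham pigs (SD, n = 4 each). The fitted log2 fold change was 7.52 (SE 2.05), a ratio of 184, and without pig 11 it was 5.88, a ratio of 58.8. On the log2 CPM scale the SD between pigs was 5.83 for IR and 0.969 for sham pigs. Within males the log2 fold change was 7.98 (SE 0.70), and within females it was -1.61 (SE 2.02), with 2 pigs on each side, so the ratio of the group means came from the males.

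Border zone levels of *SFRP2* were low in all 8 pigs. IR pigs 2, 14, 9 and 11 held 0.125, 0, 0.269 and 1.45 TPM, and sham pigs 4, 5, 12 and 13 held 0, 0.0320, 0.0657 and 0.257 TPM. Only pig 11, with 214 counts, was above the sham range by a wide margin, and pig 9 was just above it. Means were 0.461 ± 0.668 TPM in IR and 0.0887 ± 0.116 TPM in sham pigs (SD, n = 4 each). *SFRP2* fell below the minimum count for testing here, and without that minimum its log2 fold change was 2.48 (SE 1.18, edgeR quasi-likelihood test, adjusted p = 0.927).

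**Figure D1:**
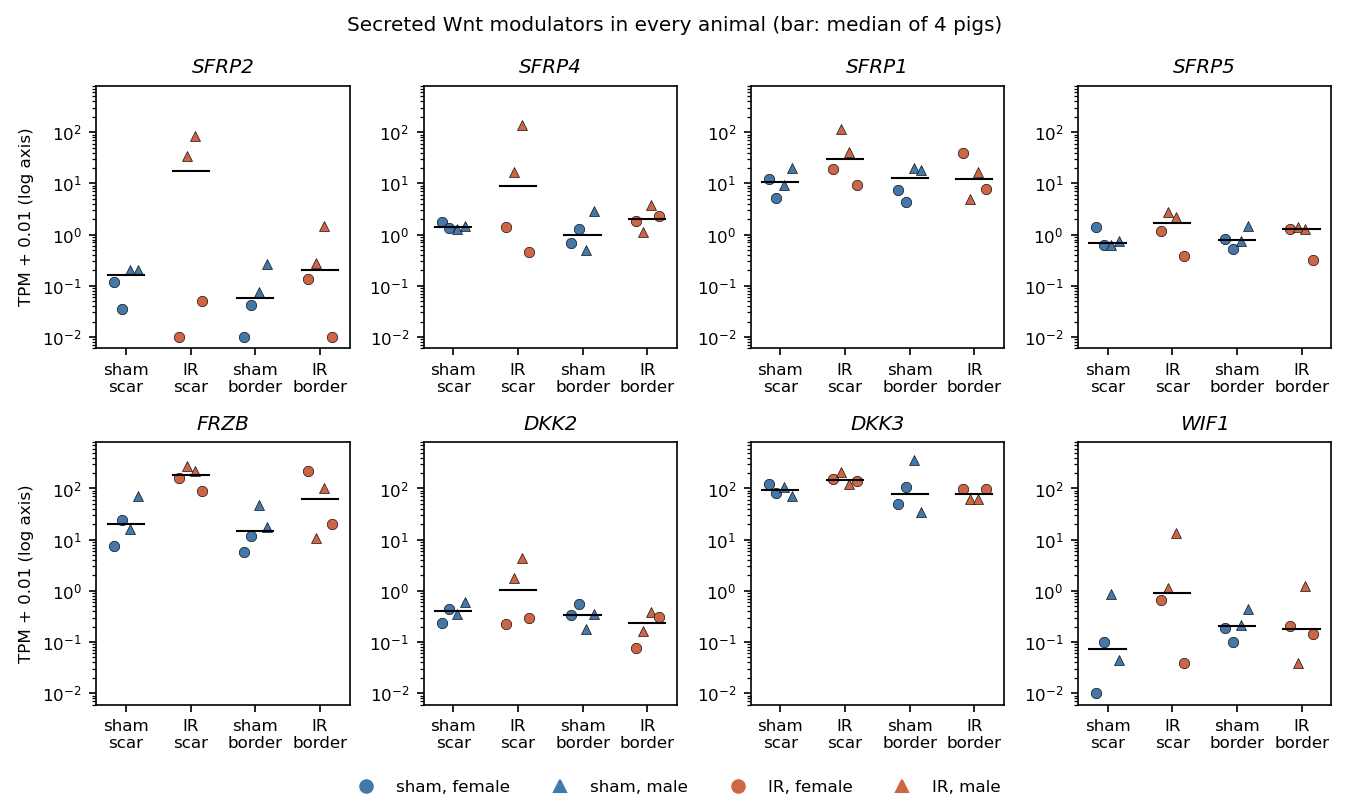
Level of each secreted Wnt modulator in every sample, as TPM + 0.01 on a log axis, for the 4 groups. Circles are females, triangles males, bars the median of 4 pigs. *SFRP2* in the IR scar zone splits into 34.5 and 85.0 TPM in the males and 0 and 0.0411 TPM in the females, while *FRZB* lies above all sham pigs in all 4 IR scar zones.

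*SFRP4*, a family member also expressed by fibroblasts, was likewise high in the IR scar zone of both males. In the IR scar zone it was at 16.4 TPM in pig 9 and 140 TPM in pig 11, but at 1.39 in pig 2 and 0.442 in pig 14. Sham scar zones lay close together, at 1.71, 1.36, 1.26 and 1.49 TPM in pigs 4, 5, 12 and 13. Pigs 9 and 11 were at 9.55 and 81.9 times the highest sham pig, and the groups overlapped through the IR females. The log2 fold change was 4.54 (SE 1.44, unadjusted p = 0.0110, edgeR adjusted p = 0.438), and without pig 11 it was 1.57.

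*SFRP1*, a binder of Wnt ligands that has been studied in cardiac repair, was at 19.2, 9.19, 116 and 41.5 TPM in the IR scar zone of pigs 2, 14, 9 and 11. The sham scar zone held 12.02, 5.14, 9.25 and 19.9 TPM in pigs 4, 5, 12 and 13. Pigs 9 and 11 were above all sham pigs, at 5.80 and 2.08 times the highest, and pigs 2 and 14 were inside the sham range. The log2 fold change was 1.61 (SE 0.61, unadjusted p = 0.0255, edgeR adjusted p = 0.438), and without pig 9 it was 0.89. The largest border zone value was that of IR pig 2, 39.4 TPM, with 7.65, 5.03 and 16.7 in pigs 14, 9 and 11 and 4.35 to 19.9 in sham pigs. Its log2 fold change there was 0.49 (edgeR adjusted p = 0.988), and without pig 2 it was -0.29.

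*SFRP5*, the least abundant of the 5 related genes in the IR scar zone by mean TPM, was between 0.305 and 2.72 TPM in all 16 samples. The IR scar zone held 1.18, 0.376, 2.72 and 2.17 TPM in pigs 2, 14, 9 and 11, and sham pigs 0.614 to 1.41. Both males were above the sham range, and the log2 fold changes of 0.68 in the scar zone (adjusted p = 0.552) and 0.26 in the border zone (adjusted p = 0.991) did not pass the edgeR test.

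*FRZB* was the most abundant of the secreted frizzled-related proteins by mean TPM in each of the 4 groups, and its scar zone level was higher in all 4 IR pigs than in any sham pig. IR pigs 2, 14, 9 and 11 held 159, 90.3, 278 and 215 TPM, and sham pigs 4, 5, 12 and 13 held 7.52, 24.5, 15.8 and 71.6 TPM. The lowest IR pig was at 1.26 times the highest sham pig. Means were 186 ± 80.0 and 29.8 ± 28.7 TPM (SD, n = 4 each), and the log2 fold change was 2.37 (SE 0.62), a ratio of 5.17 (unadjusted p = 0.00371, edgeR adjusted p = 0.438). It was 2.09 within males and 2.93 within females, and 2.03 to 3.28 when any 1 pig was left out. On the log2 CPM scale *FRZB* was the only member tested whose IR and sham scar zone values did not overlap, a count of 1 of 7 beside 2.2% of all 14023 genes tested with all IR pigs higher, and 0 members had all IR pigs lower, beside 2.65%.

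*FRZB* varied more in the border zone. IR pigs 2, 14, 9 and 11 held 220, 20.6, 10.9 and 101 TPM, and sham pigs 4, 5, 12 and 13 held 5.69, 11.9, 48.0 and 17.9 TPM. Pigs 2 and 11 were above the sham range, and pigs 14 and 9 inside it. The log2 fold change was 2.15 (SE 0.90, unadjusted p = 0.0363, edgeR adjusted p = 0.988), with 3.68 within females and 0.95 within males. It was 1.204 without IR pig 2 and 2.89 without sham pig 12.

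Added together, the 5 secreted frizzled-related proteins were at 181, 100.3, 447 and 484 TPM in the IR scar zone of pigs 2, 14, 9 and 11, and at 22.8 to 93.9 TPM in the sham scar zone. All 4 IR pigs were above the sham range, pig 14 by little. *FRZB* made up 44.4% to 90.0% of this sum in IR and 33.0% to 77.4% in sham pigs. *SFRP2* made up 0% to 17.6% in IR pigs and at most 0.696% in sham pigs, and *SFRP4* 0.440% to 29.0% and 1.58% to 7.52%. Border zone sums were 18.7 to 263 TPM in IR and 14.6 to 69.3 TPM in sham pigs, and the groups overlapped.

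**Figure D2:**
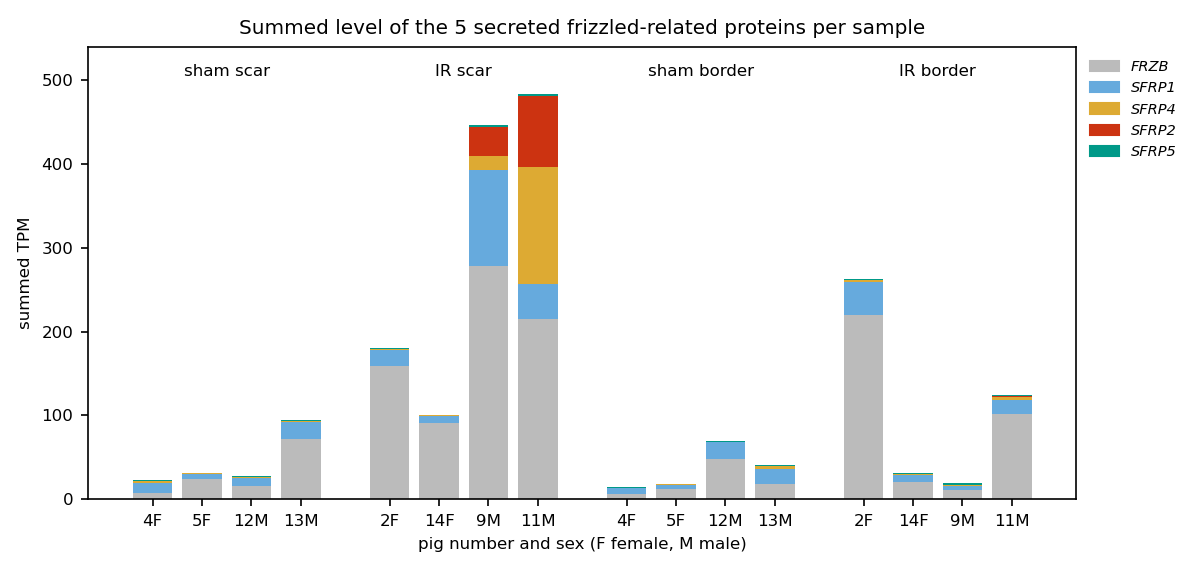
Summed TPM of *FRZB*, *SFRP1*, *SFRP4*, *SFRP2* and *SFRP5* in each of the 16 samples, stacked by gene, with pigs numbered and marked F (female) or M (male). *FRZB* is the largest block in every IR scar zone, and *SFRP2* and *SFRP4* are visible there only in males 9 and 11.

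*DKK3*, a divergent Dickkopf family member, was among the most abundant members in every group. The IR scar zone held 154, 138, 214 and 125 TPM in pigs 2, 14, 9 and 11, and the sham scar zone 121, 80.9, 105 and 71.7 TPM in pigs 4, 5, 12 and 13. In TPM all 4 IR pigs were above all sham pigs, pig 11 by a ratio of 1.03, whereas in TMM-scaled CPM the groups overlapped. The log2 fold change of 0.54 (SE 0.16), a ratio of 1.46, was 0.52 within males and 0.56 within females, and stayed below the 2-fold threshold (unadjusted p = 0.00856, edgeR adjusted p = 0.438). In the border zone the highest value was that of sham pig 12, 359 TPM, and the other 7 pigs held 35.0 to 107 TPM. The border log2 fold change was -0.76 (edgeR adjusted p = 0.988), and without pig 12 it was 0.24.

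*DKK2*, which binds the co-receptors LRP5 and LRP6, was low, and high only in the same males within the IR scar zone. Pigs 2, 14, 9 and 11 held 0.214, 0.2801, 1.81 and 4.42 TPM there, against 0.227, 0.432, 0.346 and 0.592 TPM in sham pigs 4, 5, 12 and 13. The 2 males were at 3.05 and 7.46 times the highest sham pig, and the females were at 0.361 and 0.473 times it. The log2 fold change was 1.79 (SE 0.82, unadjusted p = 0.0546, edgeR adjusted p = 0.449), and without pig 11 it was 0.54. Its border zone levels were between 0.0656 and 0.537 TPM in all 8 pigs.

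*WIF1*, which binds Wnt ligands directly, was high in a single sample. The IR scar zone of pig 11 held 13.7 TPM (893 counts), and pigs 2, 14 and 9 held 0.654, 0.0291 and 1.10 TPM. Sham scar zones held 0, 0.0909, 0.866 and 0.0340 TPM in pigs 4, 5, 12 and 13. Pig 9 was thus 1.27 times and pig 11 15.8 times the highest sham pig, and the other IR pigs were within the sham range. The log2 fold change was 3.73 (SE 1.54, unadjusted p = 0.0368, edgeR adjusted p = 0.438), moving to 0.96 without IR pig 11 and to 6.16 without sham pig 12. Border zone levels of *WIF1* were at 0.0282 to 1.23 TPM, below the minimum count for testing. In the scar zone it met that minimum mostly through IR pigs, with 25, 70 and 893 counts in pigs 2, 9 and 11. Sham pig 12 had 52 counts, and the other sham pigs had 5 or fewer.

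None of the 7 members tested in the scar zone passed an adjusted p of 0.05 with a fold change of 2, and 0% of the 14023 genes tested did (edgeR quasi-likelihood test, smallest adjusted p over all genes 0.414). At an unadjusted p of 0.05 with the same fold change, 4 of the 7 were higher in IR pigs (*SFRP1*, *SFRP4*, *FRZB* and *WIF1*) and 0 were lower. Over all genes 2.74% were higher and 0.613% lower by that rule, and the members were chosen with this contrast in view. The count of members was 2 without sham pig 4, sham pig 5 or IR pig 11, beside 2.72%, 1.87% and 1.515% of all genes higher in those fits. It was 3 without IR pig 9, sham pig 12 or sham pig 13, beside 1.73%, 2.27% and 2.68%, and 5 without IR pig 2 or IR pig 14, beside 4.30% and 4.80%, so the share of all genes was also highest where the count was highest. *FRZB* was among them each time. By DESeq2, 4 of the 7 were higher at the unadjusted p, beside 2.77% of all genes. By limma it was 2 on log2(TPM + 1), beside 1.04%, 2 on log2(TPM + 0.1), beside 1.65%, and 1 without a filter, beside 0.4825%. At the adjusted p 0 members passed by either tool, beside 0.372% of all genes by DESeq2 and at most 0.0246% by limma.

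With separate IR effects for males and females in 1 fit of the 8 scar zone samples, males gave 1 member past the adjusted threshold, *SFRP4* (log2 fold change 5.58, SE 1.06, edgeR adjusted p = 0.0238), where 4.23% of all genes passed. *DKK2* and *SFRP1* had log2 fold changes of 2.41 (adjusted p = 0.0551) and 1.93 (adjusted p = 0.0759) in that fit. Within females 0 members passed, where 0.00713% of all genes did, and *SFRP4* had a log2 fold change of -0.70 (adjusted p = 0.844). The difference of the *SFRP4* effect between males and females was 6.28 on the log2 scale (SE 1.52, unadjusted p = 0.00320, edgeR adjusted p = 0.0844), where 1.5% of all genes passed, so it did not pass the adjusted threshold. Splitting by sex was chosen after the values were seen, it rests on 2 IR and 2 sham pigs on each side, and sex and depth coincide among the IR pigs.

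**Figure D3:**
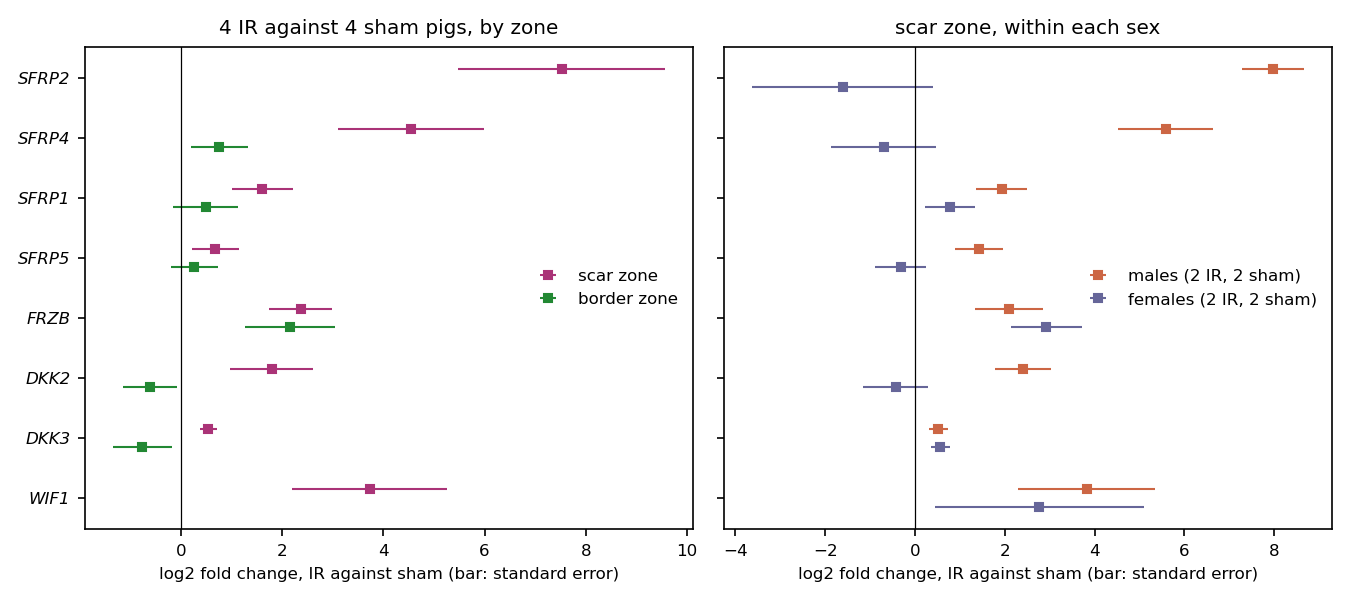
Log2 fold change of IR against sham pigs with its standard error, for each member. The left panel compares the scar zone with the border zone (4 against 4 pigs) and the right panel males with females in the scar zone (2 against 2 pigs each). *SFRP2*, *SFRP4*, *DKK2* and *SFRP5* lie at 7.98, 5.58, 2.41 and 1.43 in males and below 0 in females, whereas *FRZB*, *DKK3*, *SFRP1* and *WIF1* lie above 0 in both. *SFRP2* and *WIF1* have no border zone value because they fell below the minimum count.

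In the border zone 6 members were tested, and 0 passed the adjusted threshold, which 0% of 13728 genes passed (edgeR, adjusted p of the members 0.988 to 0.991). At the unadjusted p 1 member was higher, *FRZB*, beside 0.517% of all genes, and 0 were lower, beside 0.277%. *FRZB* was no longer past that threshold without pig 2, pig 4, pig 5, pig 11 or pig 13, and *SFRP4* passed it without pig 13, beside 0.209% to 0.906% of all genes over the 8 fits that leave out 1 pig. At the unadjusted p DESeq2 gave 1 member, beside 0.511% of all genes higher, and each of the 3 limma settings 0, beside 0.103% to 0.266%. At the adjusted p both tools gave 0 members, beside 0.0146% of all genes by DESeq2 and 0% by limma.

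The scar zone effect of IR minus its border zone effect was above 0 for each of the 7 members tested, and 0 passed the adjusted threshold, as did 0% of 14278 genes (edgeR, adjusted p = 1.00). By the unadjusted p 2 members were higher, *SFRP4* (difference 3.79, SE 1.60, unadjusted p = 0.0313, adjusted p = 1.00) and *DKK2* (2.42, SE 1.07, unadjusted p = 0.0387, adjusted p = 1.00), beside 1.32% of all genes, and 0 were lower, beside 0.049%. The count was 0 without pig 5 or pig 11, beside 0.854% and 0.739% of all genes, 1 without pig 9, beside 0.559%, and 3 without pig 2, beside 2.42%. Without pig 11 *SFRP4* was at 1.26 and *DKK2* at 1.64. DESeq2 gave 2 members at the unadjusted p, beside 1.32% of all genes, and each limma setting 0, beside 0.168% to 0.357%. With the pig as a block, which sets the zones of the same animal against each other, the difference was 1.94 for *SFRP4* (unadjusted p = 0.194, adjusted p = 0.745) and 2.12 for *DKK2* (unadjusted p = 0.0134, adjusted p = 0.702). *WIF1* moved the other way under the block, from 2.79 (unadjusted p = 0.175, adjusted p = 1.00) to 3.11 (unadjusted p = 0.0375, adjusted p = 0.702). Without the block it was 5.30 without sham pig 12, 1.95 without sham pig 13 and 1.99 without IR pig 11. *DKK2* and *WIF1* were thus the 2 members past the unadjusted threshold with the block, beside 1.39% of all genes. For *FRZB* the difference was 0.23 (SE 1.17, adjusted p = 1.00), turning to -0.27 without pig 9 and -0.73 without pig 12. It was 1.15 without pig 2, 1.21 without pig 13 and 1.17 with the block (SE 1.06, adjusted p = 0.789). The value of *SFRP2*, as a description, was 4.98, 5.05 with the block and 3.79 without sham pig 13.

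Within the same animal, the scar zone of IR pigs held more *SFRP2* than the border zone by a ratio of 85.5 in pig 9 and 46.9 in pig 11, on TMM-scaled CPM with a prior count of 2, as for the other ratios between zones. In the females both zones rested on few counts, 0 in the scar and 8 in the border zone of pig 2, and 2 and 0 in those of pig 14. *SFRP4* was higher in the scar zone by 10.3 times in pig 9 and 30.4 times in pig 11, and its ratio was 0.767 in pig 2 and 0.228 in pig 14. *FRZB* had ratios of 19.2 in pig 9, 1.75 in pig 11, 4.73 in pig 14 and 0.737 in pig 2. IR males and females therefore parted for *SFRP2* and *SFRP4*, whereas for *FRZB* the ratio was below 1 in pig 2 and highest in pig 9. Sham pigs 4, 5, 12 and 13 had *FRZB* ratios of 1.096, 2.17, 0.348 and 4.19.

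*DKK3* was higher in the scar zone of all 4 IR pigs, with ratios of 1.57, 1.56, 2.503 and 1.64 in pigs 2, 14, 9 and 11. Sham pigs 4, 5, 12 and 13 had *DKK3* ratios of 2.06, 0.795, 0.304 and 2.17, so the IR ratios lay within the sham range except in pig 9. On the same TMM-scaled CPM *DKK2* was also higher in all 4 IR pigs, with ratios of 2.63, 1.01, 7.30 and 9.19. In TPM, however, pig 14 held less *DKK2* in the scar zone (0.2801, 13 counts) than in the border zone (0.299, 15 counts). By CPM, *DKK3* and *DKK2* were thus 2 of the 7 members, beside 10.7% of 14170 genes that were higher in the scar zone of all 4 IR pigs. By the same scale 0 members were lower in all 4, beside 10.4%. Log2 differences were 0.81 (SE 0.20, unadjusted p = 0.00248, edgeR adjusted p = 0.989) for *DKK3* and 2.63 (SE 0.93, unadjusted p = 0.0186, edgeR adjusted p = 0.989) for *DKK2*. No member passed the adjusted threshold, as 0% of all genes did, and 2 passed the unadjusted one with a fold change of 2, *SFRP4* (3.90, unadjusted p = 0.0240, adjusted p = 0.989) and *DKK2*, beside 1.69% of all genes, with 0 lower, beside 0.0776%. The count was 0 without pig 9, beside 0.488% of all genes, 1 without pig 11, beside 0.709%, and 3 without pig 2, beside 2.602%. Without pig 11 *SFRP4* was at 1.39 and *DKK2* at 1.86. DESeq2 gave 2 members at the unadjusted p, beside 1.76% of all genes, and limma 1 on log2(TPM + 1), beside 0.435%, 1 on log2(TPM + 0.1), beside 0.616%, and 0 without a filter, beside 0.1897%. With the pig as a block, *SFRP4* was at 2.15 (unadjusted p = 0.129, adjusted p = 0.486) and *WIF1* at 2.68 (unadjusted p = 0.00634, adjusted p = 0.431), against 2.93 (unadjusted p = 0.0763, adjusted p = 0.989) without it. *FRZB* was at 0.84 (adjusted p = 0.989) and with the block at 1.66 (adjusted p = 0.436). Without the block it was 1.77 without pig 2 and 0.36 without pig 9. *DKK2* and *WIF1* passed the unadjusted threshold with the block, 2 of 7 members, beside 1.5% of all genes. Without pig 11 *WIF1* fell below the minimum count for this comparison, as it did between the zones of sham pigs.

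Sham pigs showed what the same regions held without ischemia. Of the 6 members tested between their zones, 0 passed the adjusted or the unadjusted threshold (edgeR, adjusted p = 1.00), where 0% passed the adjusted one, and 0.029% of 13803 genes were higher and 0.0724% lower by the unadjusted one. Log2 differences ran from -0.50 for *DKK3* to 0.61 for *FRZB*. *DKK3* in sham pig 12 was at 105 TPM in the scar zone and 359 TPM in the border zone, and its difference was 0.47 without that pig and 0.05 with the block. For *FRZB* it was 1.57 without pig 12 and -0.37 without pig 13. DESeq2 and limma also gave 0 members at either threshold, beside at most 0.0581% of all genes higher at the unadjusted p.

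**Figure D4:**
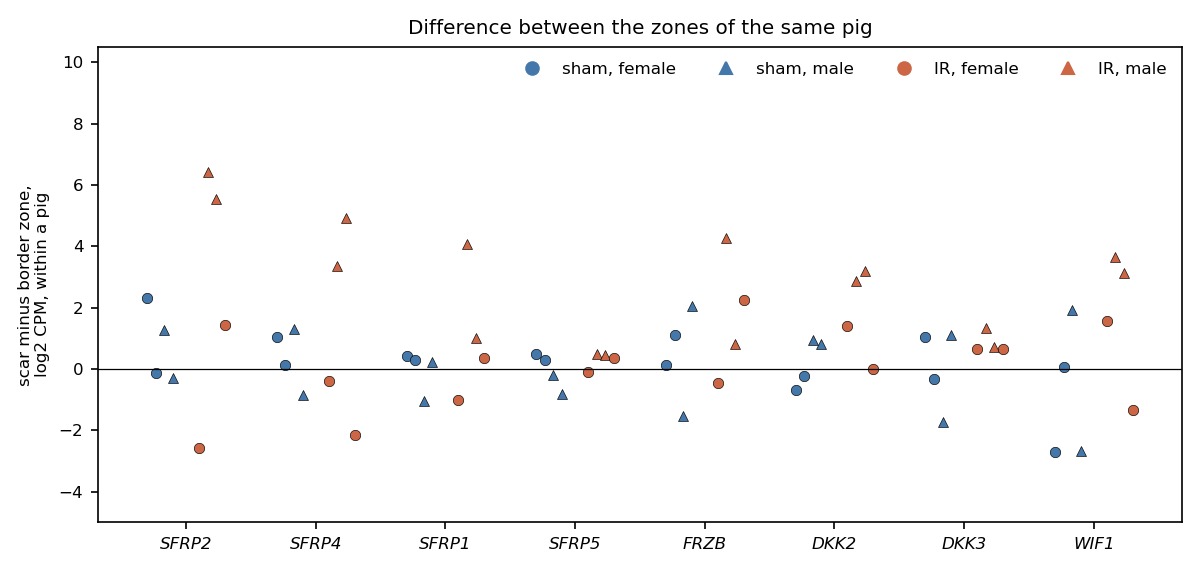
Scar zone minus border zone of the same pig in log2 CPM, for each member and pig. Circles are females and triangles males. *SFRP2* and *SFRP4* lie far above 0 in IR males 9 and 11, and *DKK3* lies above 0 in all 4 IR pigs, by 0.64 to 1.32.

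Ordered by mean TPM, the IR scar zone held *FRZB*, *DKK3*, *SFRP1*, *SFRP4*, *SFRP2*, *WIF1*, *DKK2* and *SFRP5*, at 186, 158, 46.4, 39.6, 29.9, 3.86, 1.68 and 1.61 TPM. In the sham scar zone the order was *DKK3*, *FRZB*, *SFRP1*, *SFRP4*, *SFRP5*, *DKK2*, *WIF1* and *SFRP2*, at 94.7, 29.8, 11.6, 1.45, 0.845, 0.3995, 0.248 and 0.129 TPM. By these means *SFRP2* was the last of the 8 in sham pigs and the fifth in IR pigs, but its place differed between IR pigs, at 4 in pigs 9 and 11, 7 in pig 14 and 8 in pig 2. Neighbours in the IR order seldom held in each animal, since *DKK3* was above *SFRP1* in 4 of 4 pigs, but *FRZB* above *DKK3*, *SFRP1* above *SFRP4*, *SFRP4* above *SFRP2* and *SFRP2* above *WIF1* in 3 of 4. *WIF1* was above *DKK2* in 2 of 4 and *DKK2* above *SFRP5* in 1 of 4. In the sham order the neighbours held in 4 of 4 pigs, except *FRZB* above *SFRP1* and *DKK2* above *WIF1* in 3 of 4 and *WIF1* above *SFRP2* in 2 of 4. In the border zone *FRZB* and *DKK3* led in IR pigs (88.2 and 79.8 TPM, *FRZB* higher in 2 of 4 pigs) and *DKK3* led *FRZB* in sham pigs (138 and 20.9 TPM, 4 of 4 pigs).

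Among 12145 genes listed by symbol, those whose log2 CPM followed *SFRP2* most closely over the 16 samples were *LOX*, which crosslinks collagen and elastin, with a Pearson r of 0.958, *PRSS35* (0.943), *UAP1*, an enzyme of amino sugar synthesis (0.939), *EFEMP2*, a component of elastic fibres (0.936), and *SERPING1*, the inhibitor of complement C1 (0.935). The samples come from 8 pigs that each gave 2 libraries, and the coefficients are descriptions. Spearman's rho was 0.888 for *LOX*, and without the 2 samples farthest from the median of *SFRP2* its r was 0.799 over 14 samples. For *PRSS35*, *UAP1*, *EFEMP2* and *SERPING1* rho was 0.891, 0.7345, 0.705 and 0.714. Their r over the 14 samples was 0.777, 0.714, 0.661 and 0.690. *LOX* stood at 35.9 and 38.3 TPM in the IR scar zone of pigs 9 and 11, and at 4.19 and 4.59 TPM in pigs 2 and 14, with 3.67 to 5.88 TPM in sham pigs. Of the other members *SFRP4* had the highest r with *SFRP2* over the 16 samples (0.868, against 0.670 for *SFRP5*). Without the same 2 samples r was 0.478 for *SFRP4* and 0.516 for *SFRP5*, and rho over the 16 samples was 0.566 and 0.726. *SFRP5* thus had the higher value by these measures. In those 14 samples *SFRP2* rested on 0 to 214 counts and *SFRP5* on 7 to 83. Values near the floor therefore weigh on both measures, and which gene is nearer to *SFRP2* cannot be told from them. *DKK3* had the lowest r over the 16 samples (0.00423).

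Summed fibroblast, epicardial, leukocyte, smooth muscle and Schwann cell markers were also above the sham range in the IR scar zone of males 9 and 11. *SFRP2* was picked for its ratio in these samples, so its ratio is not compared in size with theirs. *COL1A1*, which encodes a chain of fibrillar collagen, was at 5.55 and 7.08 times the highest sham scar zone in pigs 9 and 11. By the same measure *POSTN*, a matrix protein of activated fibroblasts, was at 9.16 and 2.57 times. *PDGFRA*, a receptor that marks fibroblasts, was at 2.05 and 1.53 times. In pigs 2 and 14 *COL1A1* was at 0.994 and 0.562 times the highest sham pig. Summed epicardial and mesothelial markers (4 of 8 with an entry) were at 22.5 and 19.0 TPM in pigs 9 and 11, at 5.16 and 4.37 TPM in pigs 2 and 14, and at 4.08 to 6.85 TPM in sham pigs. Summed leukocyte markers (9 of 9) were at 128 and 109 TPM in the males and 41.6 and 46.4 TPM in the females, against 29.3 to 69.3 TPM. Smooth muscle and pericyte markers (8 of 8) were at 847 and 810 TPM in the males, 526 and 375 TPM in the females and 390 to 570 TPM in sham pigs. That is a sum, and the median scar zone log2 fold change of these 8 genes was 0.01, with *MYH11* at -0.05. Of the 8, 1 was higher at the unadjusted threshold, beside 2.74% of all genes (edgeR). Schwann cell markers (5 of 6) were at 8.97 and 5.25 TPM in pigs 9 and 11, 8.47 and 2.52 TPM in pigs 2 and 14, and 2.29 to 4.58 TPM in sham pigs, so IR pig 2 was above the sham range in these as well. The part of these cells in the levels of *SFRP2*, *SFRP4*, *SFRP1*, *DKK2* and *FRZB* was not tested. In bulk tissue more cells of a type and more RNA per cell cannot be told apart. *FRZB* was above the sham range in IR females 2 and 14 (159 and 90.3 TPM), in pig 14 at 1.26 times the highest sham pig. Fibroblast markers of these females were at 0.8289 and 0.598 times the highest sham pig, and the relation of the 2 was not tested.

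Marker levels of IR and sham pigs overlapped throughout the border zone. Summed fibroblast markers were at 2171 to 2697 TPM in IR and 1847 to 2661 TPM in sham pigs, and leukocyte markers at 39.5 to 71.9 and 29.1 to 67.1 TPM. Of 13 fibroblast markers 0 were higher at the unadjusted threshold in the border zone, beside 0.517% of all genes, and 3 in the scar zone, beside 2.74% (*COL1A1*, *COL1A2* and *POSTN*), with 0 past the adjusted one in either (edgeR). Endothelial (7 of 8) and adipocyte markers (7 of 7) overlapped between IR and sham pigs in both zones.

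Beyond the secreted modulators, 5 lists of Wnt pathway genes gave 0 genes past the adjusted threshold in the scar or border zone (edgeR). Of 19 Wnt ligands 8 were tested in the scar zone and 0 passed the unadjusted threshold, with a median log2 fold change of 0.40, beside 0.03 over all genes. The most abundant ligands were low, *WNT9A* with means of 3.30 ± 1.55 TPM in the IR and 2.61 ± 0.434 TPM in the sham scar zone, *WNT11* with 1.74 ± 0.503 and 1.40 ± 0.0653 TPM, and *WNT5A*, a ligand of beta-catenin-independent signaling, with 1.34 ± 1.05 and 0.925 ± 0.257 TPM (SD, n = 4 each). None of these ligands was near the levels of *FRZB* or *DKK3* in TPM.

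Of 14 Wnt receptors tested 1 was higher at the unadjusted threshold, beside 2.74% of all genes, with a list median of -0.13. The receptors with the highest TPM were *RYK* (log2 fold change 0.13, edgeR adjusted p = 0.672), *FZD4* (-0.21, adjusted p = 0.489) and *FZD6* (-0.07, adjusted p = 0.872). The higher one was *ROR2*, a receptor of WNT5A, chosen for mention after its values were seen, with 4.94 and 3.98 TPM in pigs 9 and 11, 0.163 and 0.281 TPM in pigs 2 and 14, and 0.101 to 0.348 TPM in sham pigs (log2 fold change 2.85, SE 0.91, edgeR adjusted p = 0.438). It parted the males from the females as *SFRP2* did.

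Other extracellular regulators (11 tested, among them *GPC3*, *GPC4* and *LGR4*) and intracellular signaling genes (22 tested) gave 0 genes past the unadjusted threshold in the scar zone, with medians of 0.02 and -0.01. *CTNNB1*, which encodes beta-catenin, had a log2 fold change of 0.01 (SE 0.14), *CSNK1A1* of 0.06 (SE 0.11) and *DVL1*, a transducer of the Frizzled signal, of -0.40 (SE 0.17, edgeR adjusted p = 0.438). The classical Dickkopf inhibitor *DKK1* was between 0 and 0.803 TPM in all samples and too low to be tested in the scar zone.

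Of 17 target genes of beta-catenin tested in the scar zone, 3 were higher at the unadjusted threshold and 0 lower, beside 2.74% and 0.613% of all genes, with a list median of 0.22. *AXIN2*, a feedback inhibitor widely used as a readout of this pathway, was at 1.80, 2.04, 3.48 and 1.74 TPM in IR pigs 2, 14, 9 and 11 and at 1.92 to 2.79 TPM in sham pigs (log2 fold change -0.20, SE 0.18, edgeR adjusted p = 0.647). *LEF1*, a transcription factor and target of the pathway, had a log2 fold change of 1.15 (SE 0.60, adjusted p = 0.483), *CCND1* of 0.22 (adjusted p = 0.539), *TCF4* of 0.04 (adjusted p = 0.918) and *CD44* of 0.56 (adjusted p = 0.438) in the same edgeR fit. The 3 higher genes, named after their values were seen, were *NKD1*, an intracellular inhibitor of Wnt signaling (1.78, SE 0.69), *WISP1*, a matricellular protein (2.59, SE 0.74), and *FGF18*, a growth factor (1.23, SE 0.46), each with an edgeR adjusted p of 0.438. *WISP1* was at 6.29 and 3.33 TPM in pigs 9 and 11, 0.3165 and 0.5677 TPM in pigs 2 and 14, and 0.203 to 0.468 TPM in sham pigs. *NKD1* was at 4.68 and 2.61 TPM in the males, 0.329 and 0.487 TPM in the females and 0.209 to 0.733 TPM in sham pigs. *FGF18* was at 0.738 and 1.295 TPM in the males, 0.501 and 0.256 TPM in the females and 0.153 to 0.338 TPM in sham pigs. Both males were thus above the sham range in all 3 genes, as were pig 14 in *WISP1* and pig 2 in *FGF18*. In the border zone 0 genes of these 5 lists passed the unadjusted threshold, and *AXIN2* and *LEF1* had log2 fold changes of -0.58 and -0.64 (edgeR adjusted p = 0.988 each). By that threshold 5 of 17 targets were higher in the scar than the border zone of IR pigs, beside 1.69% of all genes. In sham pigs 0 were. For the IR effect of scar minus border zone, 4 were higher, beside 1.32%. None passed the adjusted threshold. Between zones of IR pigs *LEF1* was at 1.79 (unadjusted p = 0.00714) and *AXIN2* at 0.64 (unadjusted p = 0.0378), edgeR adjusted p = 0.989 each. *LEF1* was higher in the scar zone of 4 IR pigs and 1 sham pig, *AXIN2* of 4 and 3.

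**Figure D5:**
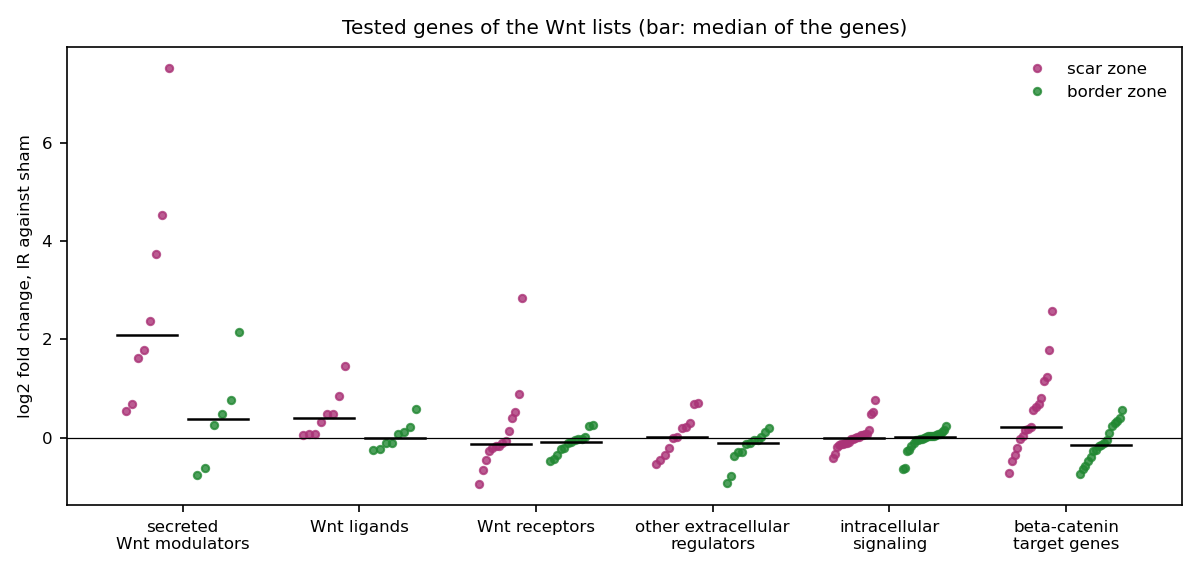
Log2 fold change of IR against sham pigs for each tested gene of the secreted Wnt modulators and of 5 lists of Wnt pathway genes, in the scar and border zones. Bars are medians over the genes. The modulators, with *SFRP2* at 7.52, were partly chosen for their scar zone values, and the medians of the other lists lie between -0.13 and 0.40 in the scar zone.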

How the data were processed

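RNA of 16 samples from 8 pigs (scar and border zone, 4 IR and 4 sham pigs) was analysed by polyA-selected, stranded, paired-end RNA-seq. The authors deposited estimated counts per gene, which kallisto gives as sums of partial read assignments, not normalized. A table of TPM was deposited as well, in which transcript length and library depth are divided out. The submitters' processing notes name Trimmomatic 0.33, HISAT2 2.0.5 and kallisto 0.43.1, and the genome build is not given in the sources used here. Reads shared between related genes are divided by kallisto, and how transcripts were summed to genes is not stated.

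Groups, sexes and pig numbers came from the labels. After rounding to whole numbers, the estimated counts were tested in R 4.3.3 with edgeR 4.0.16 (TMM scaling, filterByExpr with a minimum count of 10 and a minimum total of 15, quasi-likelihood test, p-values adjusted by Benjamini-Hochberg across the whole table). Calls required an adjusted p up to 0.05 together with a 2-fold change or more, and the unadjusted p was used beside it. The study gives the same fold and level for an adjusted or an unadjusted p, without saying which its calls used. The study used RUVSeq with settings not stated, so no factor of unwanted variation was included. Log2 CPM used a prior count of 2. Levels of different genes were compared in TPM only. Genes were named by a rule, which took all 8 members, the 3 genes with the highest mean TPM of each of 5 Wnt lists, *AXIN2*, *LEF1*, defining markers, and the 5 genes most like *SFRP2*. The members, lists and comparisons were chosen with earlier results of these data known. Members matched the Sscrofa11.1 RefSeq gene table in 8 of 8 cases, and sequences were not used here.

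The pig number marks the same animal in both zones, so the pairing is real, and deviations of the zones of a pig from their group means correlated at 0.354 to 0.692 over 14278 genes. Comparisons of zones were fitted without a block, and again with a replicate block for the animal. Alternatives were DESeq2 1.42.0, limma 3.58.1 on log2(TPM + 1) and log2(TPM + 0.1) for genes with at least 1 TPM in at least 4 samples, other scaling, no filter, sex as a covariate, 1 factor of unwanted variation from 5000 control genes, and leaving out each pig in turn. Fits within each sex were added after seeing the data. The tests were checked on simulated data. Totals of 15427664 to 49045206 counts set the counting precision, and replicates are separate pigs.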

Additional observations from a re-analysis of the deposited data

Results flagged for a closer look

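In 1 of 32 groups of 4 samples (8 members in 4 groups) a value lay far from the other 3. *SFRP5* in the IR border zone was at 0.305 TPM (7 counts) in pig 14 and at 1.29, 1.40 and 1.29 TPM in pigs 2, 9 and 11. On the log2 CPM scale, with -1.04 in pig 14 and 0.86, 0.86 and 1.00 in pigs 2, 9 and 11, the gap below was 0.933 of the range of the group, above the limit of Dixon's test for 4 samples. Chance gives about 1 such group in 20. The same pig also held the lowest *SFRP5* level of the IR scar zone, 0.376 TPM from 8 counts.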

How the results depend on the processing

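*SFRP2* had no border zone value in the edgeR fit, since it was below the filter, and its scar zone log2 fold change was 5.88 to 7.93 when any 1 pig was left out and -1.61 within females. Members past the threshold in the scar zone numbered 0, 1 within males and 4 at the unadjusted p. At the unadjusted p they numbered 1 in the border zone, 2 for the difference between zones and 2 between the zones of IR pigs. All genes past it in the scar zone numbered 0, 52 by DESeq2, 3 and 1 by limma on log2(TPM + 1) and log2(TPM + 0.1), 1 by limma without a filter, 1 within females, 593 within males and 470 unadjusted. The border zone gave 2 by DESeq2, 1 with 1 factor of unwanted variation, 1 within females and 109 unadjusted, and the difference between zones 196 unadjusted. Between zones DESeq2 gave 4 in IR and 1 in sham pigs, limma 2 in IR pigs under each of its settings and 1 in sham pigs on log2(TPM + 1) with or without a filter, and the unadjusted p 250 and 14.

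Directions turned within 1 sex for *SFRP4* (-0.70), *SFRP5* (-0.32) and *DKK2* (-0.43) in scar zone females, for *SFRP1* (-0.68) and *DKK2* (0.12) in border zone males, and for *DKK3* (0.21) in border zone females. Without 1 pig the border zone values ran from -0.29 to 0.81 for *SFRP1* and from -1.08 to 0.24 for *DKK3*, and the difference between zones from -0.73 to 1.21 for *FRZB*. In sham pigs the differences between the zones ran from -0.29 to 0.29 (*SFRP1*), -0.13 to 0.76 (*SFRP4*), -0.38 to 0.25 (*SFRP5*), -0.37 to 1.57 (*FRZB*), -0.077 to 0.44 (*DKK2*) and -0.86 to 0.47 (*DKK3*), and *DKK3* was at 0.035 by limma on log2(TPM + 1), 0.035 without its filter and 0.041 on log2(TPM + 0.1). The cause of these turns was not tested.

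With the pig as a replicate block *DKK3* between the zones of sham pigs was at 0.045, and all genes at the unadjusted p numbered 217 for the difference between zones, 233 in IR pigs and 28 in sham pigs. The block changed no other call at the adjusted p, and its changes at the unadjusted p for *SFRP4* and *WIF1* stand with their results. With 4 pigs a group and *SFRP2*, *WIF1* and *DKK2* at few counts in most samples, differences that are small beside the spread between pigs may have been missed. No limit of detection was computed for them. Counting limits of 0.0612 to 0.194 CPM apply to the lowest values.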
